A study of Mus musculus with 18 samples.

Results

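The comparison described here is the effect of maternal diet on gene expression that male and female kidneys shared. It used all 18 kidney libraries of the series (18 of 18), 10 from low-protein (LP) offspring and 8 from normal-protein (NP) offspring, and it set LP against NP with sex as a covariate and no interaction, so that 1 diet effect was estimated for both sexes. Members were taken from the diet and sex labels alone and no measured value entered the choice. All mice were wild-type outbred CD-1. Dams received 8% protein (LP) or 18% protein (NP) from mating through gestation and lactation, and all offspring received the 18% protein diet from weaning at 3 wk until the kidney was taken at 6 wk, so that neither group was on a restricted diet when RNA was collected. There were 5 LP and 5 NP mice among the males and 5 LP and 3 NP mice among the females. Every mouse had received cationic ferritin, an intravenous contrast agent that labels glomeruli for imaging, and males were collected 90 min and females 24 h after the last injection. Sex and the time since that injection therefore cannot be told apart, but within each sex LP and NP mice had the same interval. The RNA came from a piece of the left kidney and holds all nephron segments, vessels and stroma. The adult cohort came from a few litters, so that some mice share a dam. The litter of each mouse and the clock time of collection are not given in the sources used here, and the p-values below treat mice as independent.

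Protein restriction of the dam during kidney development is known to lower the number of nephrons that form before nephrogenesis stops, and the offspring then carry a smaller nephron complement through life. The adult kidney reclaims amino acids, glucose and phosphate in the proximal tubule, adjusts sodium, magnesium and calcium in the distal convoluted and connecting tubules, and filters plasma through a barrier kept by podocytes. Many of these transport genes are set by hormones, by sex steroids and by the intrinsic circadian clock of tubule cells.

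Each library held 14050486 to 23562411 reads assigned to genes. A further 28.6–36.1% of the reads that entered counting were not assigned to 1 gene. *Xist*, *Uty* and *Ddx3y* separated the libraries labelled male from those labelled female without exception. LP females 1 and 2 and NP female 3 stood apart from the other libraries by low interferon-stimulated genes, with a mean level of 3.05–3.51 log2(CPM + 1) over that list, and values without these 3 libraries are given beside the results they moved most. Markers of adipose tissue, which adheres to the kidney, had a mean level of 2.06–4.47 log2(CPM + 1) in LP and 2.06–4.14 in NP among males, and of 2.23–5.35 in LP and 2.79–5.46 in NP among females. Proximal tubule markers of the first 2 segments were at 8.77–9.32, 8.58–9.13, 9.07–9.55 and 8.63–9.52 in the same order, so that the diets overlapped in both lists. The libraries do not record strand, so that a gene and its partner on the opposite strand cannot be told apart, and such partners are named beside the leading genes.

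The shared diet effect was small for nearly every gene. Of 12665 genes with at least 10 reads in every library, none (0%) was a differentially expressed gene (DEG) at an adjusted p under 0.05 and a change of 1.5-fold or more in edgeR's quasi-likelihood test, and the lowest Benjamini-Hochberg adjusted p was 0.426, held by 7 genes. An unadjusted p under 0.05 was reached by 660 genes (5.21%), 315 of them higher in LP (2.49%) and 345 lower (2.72%). DESeq2's Wald test on the same libraries called 8 genes at an adjusted p under 0.05 (0.0632%), 4 of which also changed by 1.5-fold or more, and limma-voom called 2 DEGs. Only 172 genes (1.36%) differed by 1.5-fold or more, and the median standard error (SE) of a gene's log2 fold change was 0.14. Log2 fold changes are written as LP minus NP throughout, so that a negative value is lower in LP.

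To see which changes the sexes shared, males and females were also fitted separately, so that no library entered both fits. The log2 fold change had the same sign in both sexes in 7193 of 12665 genes (56.8%). Of these, 3467 were higher in LP in both sexes (27.4% of genes tested) and 3726 were lower in both (29.4%). Across genes, which are not independent replicates, Pearson's r between the male and female log2 fold changes was 0.16 and Spearman's rho was 0.18. Of the 473 genes with an unadjusted p under 0.05 in males, 309 (65.3%) had the same sign in females, and of the 483 such genes in females, 296 (61.3%) had the same sign in males. These totals depended on single mice. Without NP male 5 the same-sign share was 45.9% and r was −0.00, without NP female 3 it was 51.7%, and without NP male 3 it was 61.0%. Without the 3 libraries that stood apart it was 56.8%.

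**Figure D1:**
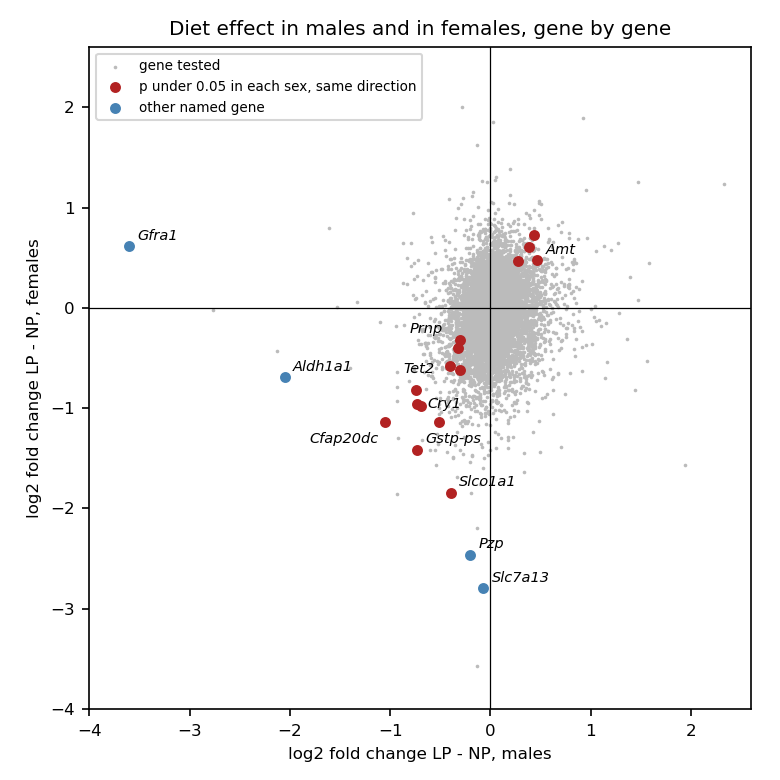
Log2 fold change (LP minus NP) in males (x axis) against females (y axis), with 1 grey point for each of 12665 genes, red points for the 15 genes with an unadjusted p under 0.05 in each sex and the same direction, and blue points for 4 other named genes. *Cry1*, *Tet2* and *Cfap20dc* lie in the lower left quadrant and *Amt* in the upper right, near equal distances from both axes, whereas *Gfra1* lies far to the left and *Slc7a13* and *Pzp* far down, so that 1 sex carries their change.

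The genes at the top of the shared comparison were *Amt* and *Fam81a*, higher in LP, and *Cry1*, *Tet2*, *Cfap20dc*, *Aldh1a1*, *4122401K19Rik* and *Prnp*, lower in LP. They are the 8 genes that DESeq2 called, and each had the same sign in males and in females. None passed the adjusted threshold in edgeR, where their adjusted p was 0.426 apart from *Prnp* at 0.700. The edgeR test of a difference between the sexes had an adjusted p of 0.977 or higher for all 8. Every other gene named below for the shared effect had an edgeR adjusted p of 0.864 or higher, so that the unadjusted p-values given for them describe a rank and not a call. For these genes the exact permutation p is printed where it was above 0.05 while edgeR's unadjusted p was below it. Normalised read counts (raw counts scaled by the size factors of DESeq2) are listed mouse by mouse, in the order of the replicate numbers. The exact test permuted the diet labels within each sex over all 14112 assignments, 2-sided, and could not give a p below 7.09e-05. These genes were taken from the top of the ranking, so that this test adds no independent support to it.

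*Amt* encodes the aminomethyltransferase of the mitochondrial glycine cleavage system, which breaks down glycine and feeds 1-carbon metabolism. Its normalised read counts were 1199, 868, 1076, 1274 and 1228 in the 5 LP males and 914, 807, 811, 890.1 and 697 in the 5 NP males. Among females they were 1333, 1647, 1699, 1910.2 and 1402 in the 5 LP females and 1204, 1149.8 and 1094 in the 3 NP females. All LP females lay above all NP females, and 4 of the 5 LP males lay above all NP males. LP minus NP was 0.47 ± 0.09 (log2, SE), with 0.47 in males and 0.48 in females, and DESeq2's adjusted p was 0.00358 with an exact permutation p of 0.000425. *Amt* lies at chr9:108173865-108179501, plus strand (GRCm39). Among the other subunits of the glycine cleavage system on the amino acid list, *Gldc* differed by −0.25 ± 0.28 with an edgeR unadjusted p of 0.378.

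*Fam81a*, a gene of little described function, was the only one of 12665 genes (0.0079%) whose LP mice all lay above the NP mice in each sex. Another 1 gene had no overlap of diets in either sex but opposite directions. How many such genes randomly drawn labels would give was not tested. *Fam81a* counted 521, 529, 454, 441 and 596 in the 5 LP males and 363, 398, 357, 366 and 429 in the 5 NP males. Its counts were 931, 917, 839.8, 1082 and 899.7 in the 5 LP females and 818, 743 and 769 in the 3 NP females. The change was modest, at 0.35 ± 0.08 on the log2 scale, with 0.42 in males and 0.27 in females. DESeq2's adjusted p was 0.0222 and the exact permutation p was 0.000142. The gene (chr9:69995772-70049842, minus strand) overlaps the predicted gene *Gm68916* on the other strand, and the counts cannot separate them.

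*Cry1* encodes a cryptochrome, the repressor that closes the negative limb of the circadian clock. It was the only gene (0.0079%) whose LP mice all lay below the NP mice in each sex. Normalised read counts were 59.6, 89.998, 111, 82.3 and 115 in the 5 LP males and 158, 177, 154, 164 and 117 in the 5 NP males. In females the values were 122, 187, 64.7, 105 and 150.2 in the 5 LP females and 187, 330.4 and 213 in the 3 NP females. LP and NP nearly touched in both sexes, since LP male 5 was just below NP male 5 and LP female 2, at 186.5, was just below NP female 1, at 186.9. LP minus NP was −0.83 ± 0.18, with −0.73 in males and −0.95 in females, and leaving out any 1 mouse kept it between −0.91 and −0.71. The DESeq2 adjusted p was 0.0222 and the exact permutation p was 0.000283.

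*Tet2* encodes a dioxygenase that oxidises 5-methylcytosine, the first step of active DNA demethylation. It was counted 738, 551, 454, 551 and 563 in the 5 LP males and 691, 765, 772, 989 and 602 in the 5 NP males. For females the counts were 675, 879.6, 721, 645 and 728 in the 5 LP females and 1070.3, 1155 and 1061 in the 3 NP females. The female groups were apart, whereas LP male 1 lay within the range of the NP males. The difference was −0.49 ± 0.10, with −0.41 in males and −0.58 in females, at a DESeq2 adjusted p of 0.0157 and an exact permutation p of 0.000567. The predicted gene *Gm42567* overlaps it on the other strand.

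*Cfap20dc*, named for a domain shared with a cilia- and flagella-associated protein, had few reads and was lower in LP in both sexes. Males counted 34.8, 71, 40.7, 22.3 and 30.2 in the 5 LP males and 81, 121, 57.9, 60.7 and 89 in the 5 NP males. Females counted 14.8, 16.8, 17.7, 11.5 and 11.9 in the 5 LP females and 34.7, 42.7 and 18.2 in the 3 NP females. Only LP male 2 reached into the NP male range, and all 5 LP females were below the 3 NP females, although LP female 3 and NP female 3 were close. The difference was −1.08 ± 0.23, with −1.05 in males and −1.14 in females, at a DESeq2 adjusted p of 0.0157 and an exact permutation p of 0.000638. *4930455B14Rik*, *Gm41095* and *Gm62429* overlap it on the other strand.

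*Aldh1a1* encodes a retinaldehyde dehydrogenase, which makes retinoic acid from retinal. In males the counts were 90.7, 106, 155, 143 and 100.05 in the 5 LP males and 575, 374, 517, 464 and 571 in the 5 NP males. In females they were 94.5, 78.1, 294, 90.7 and 165 in the 5 LP females and 337, 269.6 and 91 in the 3 NP females. The male groups were far apart, but the female groups overlapped because NP female 3 was low and LP female 3 was high. The shared difference was −1.49 ± 0.31, with −2.05 in males and −0.69 in females, and the female value had an edgeR unadjusted p of 0.221. The difference between the sexes (females minus males) was 1.36 ± 0.53, at an edgeR unadjusted p of 0.0207 and an adjusted p of 0.977. A larger effect in males was therefore not shown after adjustment, although the male value was the larger and carried most of the shared difference. DESeq2's adjusted p for the shared effect was 0.00358 and the exact permutation p was 0.00156. *Aldh1a1* passed edgeR's threshold without the 3 libraries that stood apart, without LP female 3 alone and without NP female 3 alone, and in no other test that left out 1 mouse. *C730002L08Rik* and *Gm6684* overlap it on the other strand.

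*4122401K19Rik*, an uncharacterised transcript, followed the same pattern. Its counts were 247, 175, 190.5, 102 and 137 in the 5 LP males and 493, 424, 420.1, 499 and 412 in the 5 NP males. Those of females were 172, 169.7, 194, 70.9 and 68.8 in the 5 LP females and 174, 203 and 241 in the 3 NP females. The male groups did not overlap, whereas LP females 1, 2 and 3 lay near NP female 1 and only LP females 4 and 5 were far below. LP minus NP was −1.07 ± 0.23, with −1.40 in males and −0.60 in females, at a DESeq2 adjusted p of 0.00720 and an exact permutation p of 0.000567. *A330040F15Rik* overlaps it on the other strand.

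*Prnp*, the gene of the cellular prion protein, had the most reads and the smallest change of the 8. Its counts were 2658, 3056, 3520.2, 2726 and 3074 in the 5 LP males and 3674, 4149, 3379, 3606 and 3876 in the 5 NP males. Females had 5264, 5145, 4182, 5539.9 and 5101 in the 5 LP females and 6932, 6091 and 5871 in the 3 NP females. The female groups were apart, and in males only LP male 3 reached the lowest NP male. The difference was −0.31 ± 0.07, with −0.30 in males and −0.32 in females, at a DESeq2 adjusted p of 0.0313 and an exact permutation p of 0.000213.

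**Figure D2:**
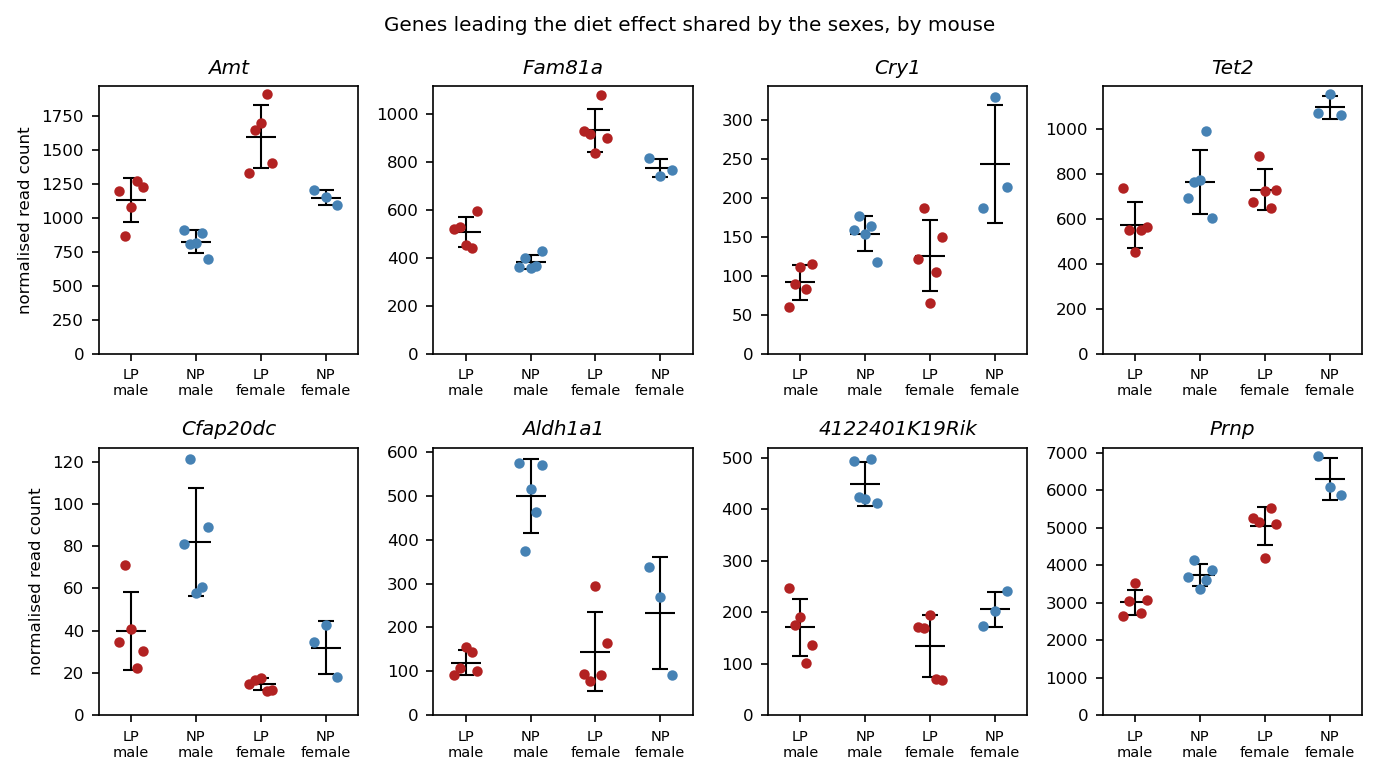
Normalised read counts (linear axis from 0) of the 8 genes that DESeq2 called, with 1 point for each mouse in red for LP and blue for NP, and the group mean with its SD in black. The LP mean is above the NP mean for *Amt* and *Fam81a* and below it for the other 6 in both sexes, with overlap among females for *Aldh1a1* and *4122401K19Rik*.

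An unadjusted p under 0.05 in each sex on its own, with the same direction, was reached by 15 genes (0.118% of those tested), 4 higher and 11 lower in LP. A further 4 genes reached it in both sexes with opposite signs. Beside *Amt*, the higher genes included *Zfp367*, a zinc finger factor of the cell cycle (0.36 ± 0.09), and *St3gal2*, a sialyltransferase (0.48 ± 0.13). The named lower genes beside *Cry1*, *Tet2*, *Cfap20dc* and *Prnp* were *Slco1a1*, an organic anion transporter under androgen control (−0.96 ± 0.31), *Nrbp2*, a pseudokinase (−0.45 ± 0.13), *Zbtb8b*, a zinc finger gene (−0.81 ± 0.24), *Gstp-ps*, a glutathione transferase pseudogene (−1.04 ± 0.31), and *Mir22hg*, the host transcript of a microRNA (−0.36 ± 0.11). The remaining lower genes were the predicted genes *Gm31494* and *Gm31600*. *Gstp-ps* may share reads with its parent genes and is uncertain. NP female 3 carried much of the *Gstp-ps* and *Zbtb8b* values. *Gstp-ps* counted 56.2, 27.5 and 209 and *Zbtb8b* 32.7, 25.6 and 83.7 in the 3 NP females, and without NP female 3 the differences were −0.56 and −0.50. Without the 3 libraries that stood apart they were −0.62 and −0.57. Other lower genes also shrank without NP female 3, to −0.31 for *Nrbp2*, −0.75 for *Slco1a1* and −0.27 for *Mir22hg*. Traces of Y-linked transcripts in the NP females are given below with the sex-biased genes, and their part in *Slco1a1* was not tested. *Zfp367* overlaps *Gm47513* on the other strand. The count rose to 35 without the 3 libraries that stood apart and to 51 without NP female 2, and was 10 at its lowest with 1 mouse left out.

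*Cry1* belongs to the circadian clock, and other parts of the clock differed in both directions. In this loop the activators BMAL1 and CLOCK switch on the *Per* and *Cry* repressors and *Nr1d1*, NR1D1 (REV-ERB alpha) represses and ROR proteins activate *Bmal1*, and PAR-domain factors such as DBP carry the rhythm to tubule genes. Of 19 clock genes tested, 9 were higher in LP in both sexes, 6 were lower in both and 4 had opposite signs, with a median log2 fold change of 0.10 over the list against −0.00 over all genes. An unadjusted p under 0.05 was reached by *Nr1d1* and *Bhlhe40*, higher in LP, and by 2 genes that were lower, *Cry1* among them. Over all genes 27.4% were higher and 29.4% lower in both sexes, and 2.49% were higher and 2.72% lower at that threshold. Because *Cry1*, *Bhlhe40* and *Nr1d1* led the list, the 250 bases before their start sites are printed from GRCm39 (GENCODE vM39 starts), 5′ to 3′ on the gene's strand, with capitals marking the E-box CACGTG through which CLOCK and BMAL1 bind.
*Cry1* (chr10:85020950-85021199, minus strand): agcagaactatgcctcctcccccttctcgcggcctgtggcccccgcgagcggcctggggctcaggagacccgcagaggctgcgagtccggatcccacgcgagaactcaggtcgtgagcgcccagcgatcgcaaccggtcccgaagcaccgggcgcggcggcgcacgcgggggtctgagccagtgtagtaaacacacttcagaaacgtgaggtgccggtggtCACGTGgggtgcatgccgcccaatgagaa
*Bhlhe40* (chr6:108636376-108636625, plus strand): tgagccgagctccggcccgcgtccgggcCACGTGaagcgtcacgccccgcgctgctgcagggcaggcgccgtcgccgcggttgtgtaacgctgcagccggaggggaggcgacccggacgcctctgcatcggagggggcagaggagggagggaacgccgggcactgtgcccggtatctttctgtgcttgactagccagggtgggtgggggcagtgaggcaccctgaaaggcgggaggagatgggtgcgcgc
*Nr1d1* (chr11:98666160-98666409, minus strand): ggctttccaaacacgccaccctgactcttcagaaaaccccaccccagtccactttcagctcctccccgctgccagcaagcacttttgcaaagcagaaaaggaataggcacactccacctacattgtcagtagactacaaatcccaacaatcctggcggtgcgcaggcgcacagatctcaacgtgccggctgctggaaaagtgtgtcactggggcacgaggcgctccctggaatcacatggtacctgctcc

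The E-box begins 29 bases before the *Cry1* start and 222 bases before the *Bhlhe40* start, and these letters are not in the *Nr1d1* window. Searched on both strands, CACGTG was in 6 of the 19 clock windows and in 976 of 12664 windows of all tested genes (7.71%). The D-box TTATGTAA, bound by DBP and NFIL3, was in 2 of 19 clock windows and 0.553% of all, and the ROR half-site AGGTCA was in 2 of 19 and 11.5% of all. A match is a run of letters and not a measured binding site.

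*Nr1d1* counted 1643, 858, 453, 1374 and 1012 in the 5 LP males and 522, 789, 655, 654 and 500.1 in the 5 NP males. Female counts were 977, 1169.5, 1830.2, 1321 and 1280.0 in the 5 LP females and 1232, 737 and 383 in the 3 NP females. LP was higher on average in both sexes, but LP male 3 lay below every NP male and LP female 1 below NP female 1, so that the diets overlapped. LP minus NP was 0.77 ± 0.23, with 0.79 in males and 0.75 in females, at an edgeR unadjusted p of 0.00325 and an adjusted p of 0.864. *Thra* and *Gm31862* overlap it on the other strand.

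*Bhlhe40*, a repressor that competes for E-boxes, differed by 0.27 ± 0.11 at an edgeR unadjusted p of 0.0231, and by 0.23 without the 3 libraries that stood apart (edgeR unadjusted p of 0.0673). The core activators had no unadjusted p under 0.05, with *Bmal1* at 0.10 ± 0.26 and *Clock* at 0.11 ± 0.14, nor did *Per1* (0.02 ± 0.23) or *Per2* (−0.17 ± 0.12). *Dbp* differed by 0.27 ± 0.21 and *Ciart* by 0.45 ± 0.25, both positive in each sex and neither at an unadjusted p under 0.05 in edgeR.

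Genes of distal calcium and magnesium handling were mostly higher in LP in both sexes. Of 19 calcium, phosphate and vitamin D genes, 12 were higher in both sexes, 2 were lower in both and 5 had opposite signs, and the median log2 fold change was 0.22 (0.23 in males, 0.17 in females). Of 15 distal convoluted tubule markers, 11 were higher in both sexes and 2 lower in both, with a median of 0.25, which stayed between 0.17 and 0.30 with any 1 mouse left out. The lists share *Calb1*, *Slc8a1* and *Kl*. An unadjusted p under 0.05 was reached by 3 members of the first list and 4 of the second, all higher in LP, where 2.49% of all genes were higher at that threshold. Summarised as the mean log2(CPM + 1) over members, the calcium list was 6.36–6.60 in LP males against 6.06–6.33 in NP males, with no overlap, and 6.43–6.90 in LP females against 6.45–6.68 in NP females, with overlap. The convoluted tubule markers were 6.95–7.37 against 6.71–7.02 in males and 7.31–7.84 against 7.35–7.74 in females. In whole tissue, more cells of a type and more RNA per cell cannot be told apart.

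*Trpv5* encodes the apical channel through which calcium enters distal tubule cells. It was counted 395, 360.0, 300.4, 332 and 293 in the 5 LP males and 219.9, 247, 259.6, 178 and 135 in the 5 NP males. The female counts were 334, 277, 642, 379.5 and 481 in the 5 LP females and 258, 393 and 97 in the 3 NP females. The male groups were apart, whereas NP female 2 lay among the LP females and NP female 3 was below every other mouse. The difference was 0.72 ± 0.21, with 0.70 in males and 0.75 in females, at an edgeR unadjusted p of 0.00305 and an adjusted p of 0.864. Without the 3 libraries that stood apart, NP female 3 among them, it was 0.67.

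*Calb1*, the calbindin that buffers calcium on its way across the cell, counted 8531, 10275, 6811, 4992 and 5063 in the 5 LP males and 4762, 3523, 6208, 4165 and 4988 in the 5 NP males. Among females it counted 10759.8, 10380.2, 12704, 14743 and 14043 in the 5 LP females and 10357, 10434 and 6493 in the 3 NP females. LP males 4 and 5 lay among the NP males and LP female 2 just below NP female 2, while NP female 3 was low. LP minus NP was 0.54 ± 0.15, with 0.60 in males and 0.46 in females, at an edgeR unadjusted p of 0.00213. *Slc8a1*, the basolateral sodium-calcium exchanger that completes this route, differed by 0.46 ± 0.22 (edgeR unadjusted p of 0.0463, exact permutation p of 0.0907), with 0.52 in males and 0.38 in females. *Trpm6*, the magnesium channel of the convoluted tubule, differed by 0.52 ± 0.20 (unadjusted p of 0.0170 in edgeR), and *Tmem52b*, a marker of the same segment, by 0.29 ± 0.10 (unadjusted p of 0.00993 in edgeR). All of these were positive in both sexes. *Slc12a3*, the thiazide-sensitive sodium chloride cotransporter that defines the segment, was at 0.27 ± 0.13 with 0.27 in each sex and did not reach an unadjusted p of 0.05 in edgeR. Other parts of the list differed between sexes in sign, among them *Trpv6*, *S100g*, *Cyp24a1* and *Cyp27b1*. Of 16 markers of the connecting tubule and principal cells, 5 were higher and 5 lower in both sexes, and 6 had opposite signs. An edgeR unadjusted p under 0.05 was reached by 2 of them that were higher, *Trpv5* included, and by 2 that were lower. *Aqp2*, the vasopressin-regulated water channel of principal cells, was lower in LP at −0.51 ± 0.24 (edgeR unadjusted p of 0.0474, exact permutation p of 0.134; −0.38 without the 3 libraries, edgeR unadjusted p of 0.163), and *Apela*, a peptide hormone gene of the collecting duct, was lower at −0.59 ± 0.25 (edgeR unadjusted p of 0.0286, exact permutation p of 0.0833).

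**Figure D3:**
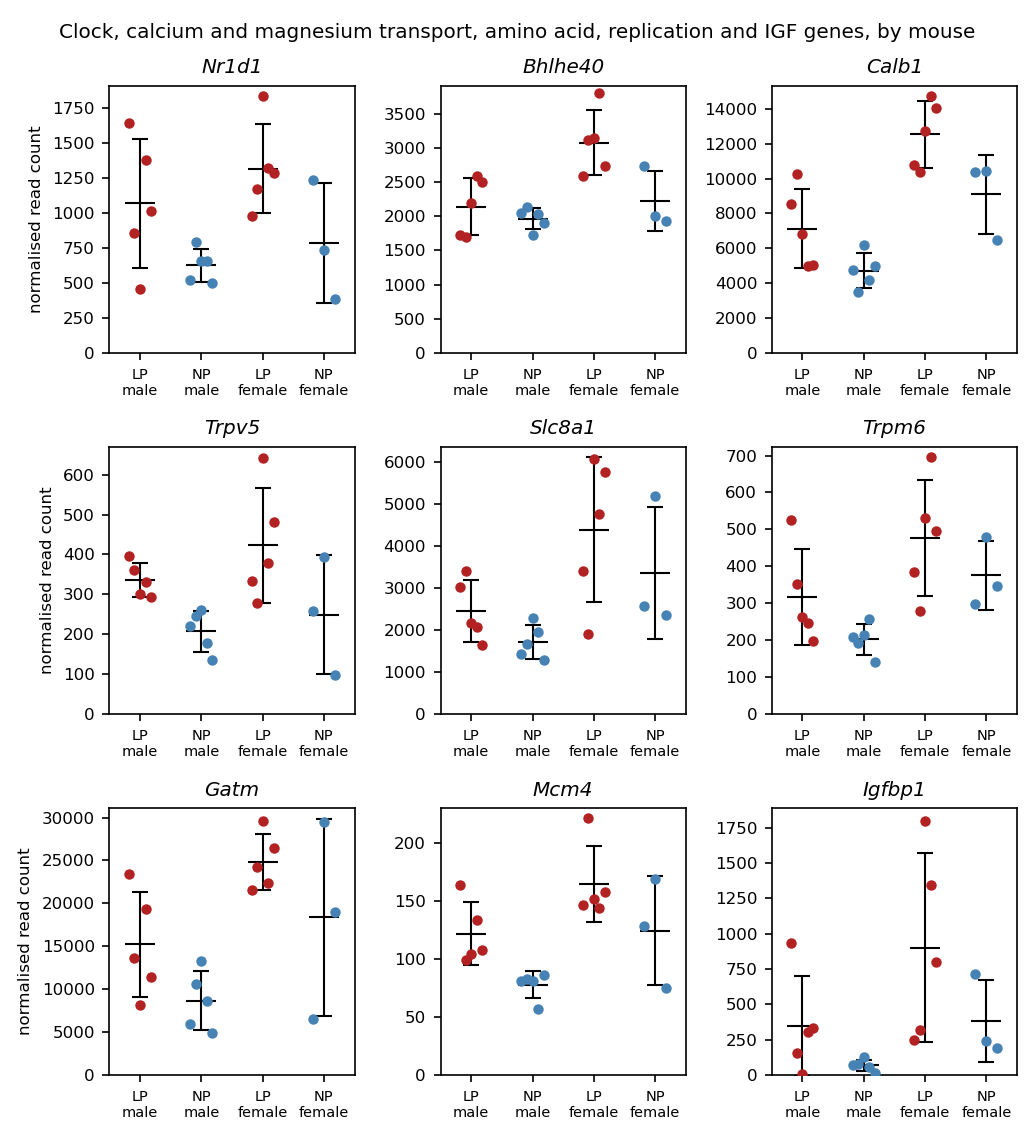
Normalised read counts (linear axis from 0) of 9 genes of the clock, calcium and magnesium transport, amino acid metabolism, replication and IGF binding, with 1 point for each mouse in red for LP and blue for NP, and the group mean with its SD in black. *Trpv5* separates the males and overlaps in females, and *Nr1d1* is higher on average in LP of both sexes with overlap between diets.

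Amino acid transporters leaned towards higher values in LP. Of 25 tested, 15 were higher in both sexes and 4 lower in both, with a median log2 fold change of 0.16 (0.10 in males, 0.20 in females). An unadjusted p under 0.05 was reached by 4 that were higher, *Slc7a7*, *Slc7a8*, *Slc43a2* and *Cltrn*, and by 1 that was lower. Over all genes 2.49% were higher and 2.72% lower at that threshold, and 27.4% were higher and 29.4% lower in both sexes. *Slc7a8*, the light chain of a basolateral exchanger of neutral amino acids, differed by 0.62 ± 0.26 (edgeR unadjusted p of 0.0281), with 0.71 in males and 0.50 in females. *Slc43a2*, a uniporter of large neutral amino acids, differed by 0.29 ± 0.13 (exact permutation p of 0.0631), and *Cltrn*, collectrin, which brings neutral amino acid transporters to the brush border, by 0.21 ± 0.09. The lower member was *Slc7a13*, an aspartate and cystine transporter of the straight proximal tubule with strong sex bias, at −1.17 ± 0.41, nearly all of it from females (−0.07 in males, −2.79 in females).

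Among 43 genes of amino acid and urea catabolism, 14 were higher in both sexes and 7 lower in both, with a median of 0.08. Over all genes 27.4% were higher and 29.4% lower in both sexes, and 5.21% had an edgeR unadjusted p under 0.05. The 3 members at that threshold, a number near that share of the list, were all higher in LP. Beside *Amt* these were *Gatm*, the first enzyme of creatine synthesis, at 0.65 ± 0.26 (edgeR unadjusted p of 0.0213), and *Oat*, ornithine aminotransferase, at 0.20 ± 0.09 (edgeR unadjusted p of 0.0459, exact permutation p of 0.0685). *Gatm* ranged from 8151 to 23425 normalised counts in LP against 4854 to 13338 in NP among males, and from 21606 to 29552 in LP against 6569 to 29536 in NP among females, so that the diets overlapped in both sexes. The urea cycle enzymes *Ass1* (0.14 ± 0.10) and *Asl* (0.13 ± 0.10) did not reach an unadjusted p of 0.05.

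The response to amino acid shortage had no common direction, with 9 of 27 genes higher and 8 lower in both sexes and a median of −0.03. *Psat1*, an enzyme of serine synthesis, was higher at 0.66 ± 0.27 (edgeR unadjusted p of 0.0275, exact permutation p of 0.0569), whereas *Atf4*, the transcription factor that drives this programme, was lower at −0.31 ± 0.09 (edgeR unadjusted p of 0.00364), with −0.18 in males and −0.48 in females.

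Podocyte markers were on the higher side in LP. Of 15 tested, 8 were higher in both sexes and 2 lower in both, with a median of 0.14 (0.23 in males, 0.03 in females). *Podxl*, podocalyxin of the foot processes, differed by 0.23 ± 0.11, *Wt1*, a transcription factor that podocytes keep, by 0.19 ± 0.22, and *Nphs1*, nephrin of the slit diaphragm, by 0.07 ± 0.19 with opposite signs in the sexes, and none of these had an unadjusted p under 0.05 in edgeR. The count of higher genes was 5 without LP female 3 and 5 without NP female 3. The mean level of the podocyte list overlapped between diets in both sexes.

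Of 35 transcription factors of kidney development, 11 were higher in both sexes, 5 lower in both and 19 opposite in sign, with a median of 0.03. Over all genes 27.4% were higher and 29.4% lower in both sexes. An edgeR unadjusted p under 0.05 was reached by 2 that were higher and 1 that was lower, and by 5.21% of all genes. *Pax8*, needed from the earliest kidney lineage and kept in adult tubules, was lower in LP at −0.30 ± 0.09 (edgeR unadjusted p of 0.00225), with −0.34 in males and −0.25 in females. *Sox4*, active in differentiating nephrons, was higher at 0.72 ± 0.27 (edgeR unadjusted p of 0.0140), and its value was positive in both sexes. Of 17 genes of retinoic acid synthesis and response, 6 were higher and 6 lower in both sexes, and *Aldh1a7*, a close relative of *Aldh1a1* that may share reads with it, was higher at 0.63 ± 0.28 (edgeR unadjusted p of 0.0374, exact permutation p of 0.0677).

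The 33 genes that write, erase or read DNA methylation and histone marks showed 10 higher and 7 lower in both sexes, *Tet2* included, with a median of 0.03, and 6 were higher without NP female 1. The other members of the family were at 0.50 ± 0.30 for *Tet1* and 0.18 ± 0.12 for *Tet3*, and the methyltransferases *Dnmt1* (−0.02 ± 0.11) and *Dnmt3a* (0.16 ± 0.11) did not reach an unadjusted p of 0.05 in edgeR.

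Replication genes had a higher median difference in males than in females. Of 28 cell cycle and DNA replication genes, 11 were higher in both sexes and 3 lower in both, and the median was 0.29 in males and −0.09 in females. The difference between these medians was not tested. Positive in both sexes were *Mcm4*, a subunit of the replicative helicase, at 0.54 ± 0.16 (edgeR unadjusted p of 0.00322), and *Tyms*, thymidylate synthase, at 0.43 ± 0.19 (edgeR unadjusted p of 0.0361, exact permutation p of 0.0711, and 0.29 without the 3 libraries, edgeR unadjusted p of 0.106). *Mcm4* was 0.65 in males and 0.39 ± 0.29 in females, where the edgeR unadjusted p was 0.206. Over both sexes it was 0.45 without NP female 3. *Mki67*, the proliferation marker, was 0.85 in males and −0.31 in females. Outside the list, the mismatch repair gene *Msh6* (0.34 ± 0.09, overlapping *Fbxo11* on the other strand) and the mitotic phosphatase *Cdc25b* (0.59 ± 0.17) had edgeR unadjusted p-values of 0.00121 and 0.00315.

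Genes of oxygen sensing went both ways, with 11 of 30 higher and 6 lower in both sexes and a median of −0.00. *Egln3*, a prolyl hydroxylase that marks HIF for decay, was higher at 0.56 ± 0.19 (edgeR unadjusted p of 0.00769). *Pdk1*, which holds back pyruvate oxidation, was lower at −0.45 ± 0.19 (edgeR unadjusted p of 0.0307, exact permutation p of 0.0563), and *Car9*, a carbonic anhydrase of hypoxic cells, was lower at −0.62 ± 0.22 (edgeR unadjusted p of 0.0116). These 3 are usually counted as HIF targets and did not share a direction.

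Glucocorticoid receptor targets and insulin and IGF genes were more often higher than lower. For the first, 13 of 22 were higher and 2 lower in both sexes with a median of 0.17, which became −0.00 once 1 surrogate variable was added to the model, and 5 were higher in both sexes without LP female 4. For the second, 17 of 30 were higher and 6 lower with a median of 0.09, and 11 were higher without NP male 5. *Igfbp1*, an IGF-binding protein raised by fasting, counted 934, 158, 10.4, 304 and 331 in the 5 LP males and 68.9, 77.8, 127, 59.6 and 17 in the 5 NP males. Its female counts were 248, 321, 1800.1, 1342 and 799 in the 5 LP females and 718, 243 and 189 in the 3 NP females. The spread among LP mice was wide, with LP male 3 below every NP male and LP females 1 and 2 below NP female 1. LP minus NP was 1.80 ± 0.58 at an edgeR unadjusted p of 0.00604, but the exact permutation p was 0.0866. *Lcn2*, a lipocalin released by stressed tubules and on the glucocorticoid list, differed by 0.99 ± 0.38 (edgeR unadjusted p of 0.0171, exact permutation p of 0.0575), with 1.27 in males and 0.65 in females.

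Genes with a known sex bias in the kidney were on the lower side in LP. Of 21 tested, 1 was higher and 11 were lower in both sexes, with a median of −0.12 (−0.09 in males, −0.14 in females), and the 3 with an unadjusted p under 0.05, *Slco1a1*, *Slc7a13* and *Pzp*, were lower. Over all genes 29.4% were lower in both sexes, and 2.72% were lower at that threshold. *Slco1a1* differed by −0.40 in males and −1.84 in females, and *Pzp*, an alpha-2-macroglobulin relative, by −0.20 in males and −2.46 in females. The edgeR test of the difference between sexes gave an adjusted p of 0.0338 for *Pzp*, 0.228 for *Slc7a13* and 0.977 for *Slco1a1*. *Pzp* therefore had the same sign in both sexes but not an equal difference. In females *Pzp* was at 11.7, 17.6, 13.3, 21.9 and 11.2 in LP and 69.4, 43.7 and 139 in NP, *Slc7a13* was at 72.6, 24.4, 22.1, 27.1 and 35.1 in LP and 343, 76.9 and 347 in NP, and *Slco1a1* was at 75, 18.5, 19.5, 77.2 and 14.7 in LP and 110.3, 118 and 212 in NP. NP female 3 was the highest female for all of them. It also had 17 normalized counts of *Uty* and 37.6 of *Ddx3y*, Y-linked genes that were at 333 or more in every male. NP females 1 and 2 had 1.02 and 4.75 of *Uty* and 5.11 and 6.65 of *Ddx3y*. The 5 LP females were at 0–1.56 and 0–7.30, with both genes at 0 in LP females 2, 3 and 5. The part of these transcripts in the result was not tested. Without the 3 libraries that stood apart, the shared differences were −0.53 for *Pzp*, −0.80 for *Slc7a13*, with an edgeR unadjusted p of 0.0536, and −0.72 for *Slco1a1*.

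Genes of ribosomal proteins and of nuclear-encoded respiratory subunits were mostly lower in LP by small amounts. Of 76 cytosolic ribosomal protein genes, 67 were lower and 4 higher in both sexes, with a median of −0.18 (−0.06 in males, −0.33 in females). Of 80 nuclear genes of oxidative phosphorylation, 61 were lower and 3 higher, with a median of −0.16. Of 76 mitochondrial ribosomal protein genes, 54 were lower and 1 higher, with a median of −0.13. Over all genes 29.4% were lower and 27.4% higher in both sexes. Of 48 cytosolic translation factors, 15 were lower, 9 higher and 24 opposite in sign, with a median of −0.02, and the 2 with an unadjusted p under 0.05 were higher. Of 10 protein genes of the mitochondrial genome, 5 were lower in both sexes and 5 opposite in sign, with medians of −0.00 in males and −0.38 in females. Single members rarely stood out. An edgeR unadjusted p under 0.05 was reached by 2 cytosolic ribosomal genes, *Rpl30* (−0.57 ± 0.23) and *Rpl35a* (−0.88 ± 0.25). It was also reached by 4 mitochondrial ribosomal genes, all lower, and by 1 higher and 1 lower gene of oxidative phosphorylation. Over all genes 2.49% were higher and 2.72% lower at that threshold. *Rpl35a* overlaps the end of *Iqcg* (−0.999 ± 0.32) on the opposite strand, and the counts of the pair cannot be fully separated. The mean level of the ribosomal list overlapped between diets, at 6.46–6.69 log2(CPM + 1) in LP males against 6.39–7.02 in NP males and 6.62–7.23 in LP females against 6.64–7.51 in NP females.

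The common sign moved with single libraries and with gene length. Without NP male 5, 11 ribosomal, 9 oxidative phosphorylation and 26 mitochondrial ribosomal genes were lower in both sexes, and the male medians of the first 2 lists were 0.07 and 0.07. Without LP male 4, 44 ribosomal and 30 oxidative phosphorylation genes were lower in both sexes, and without NP male 1, 43 ribosomal genes were. Without NP female 3 the counts were 52, 41 and 29, and the medians over both sexes were −0.07, −0.05 and −0.03. Shorter genes had lower values in LP. Spearman's rho across genes between the log2 fold change and the summed exon length was 0.257 for both sexes together, 0.107 in males and 0.265 in females. When genes were split by exon length into 5 equal groups, the shortest had a median log2 fold change of −0.09 and 44% of genes lower in both sexes, against 0.04 and 18.5% in the longest. The median exon length was 2874 bases for cytosolic ribosomal genes and 6267 bases for all genes tested. With an offset that levelled each library's trend over gene length, the medians were −0.11, −0.10 and −0.08, and 46, 50 and 48 genes were lower in both sexes.

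**Figure D4:**
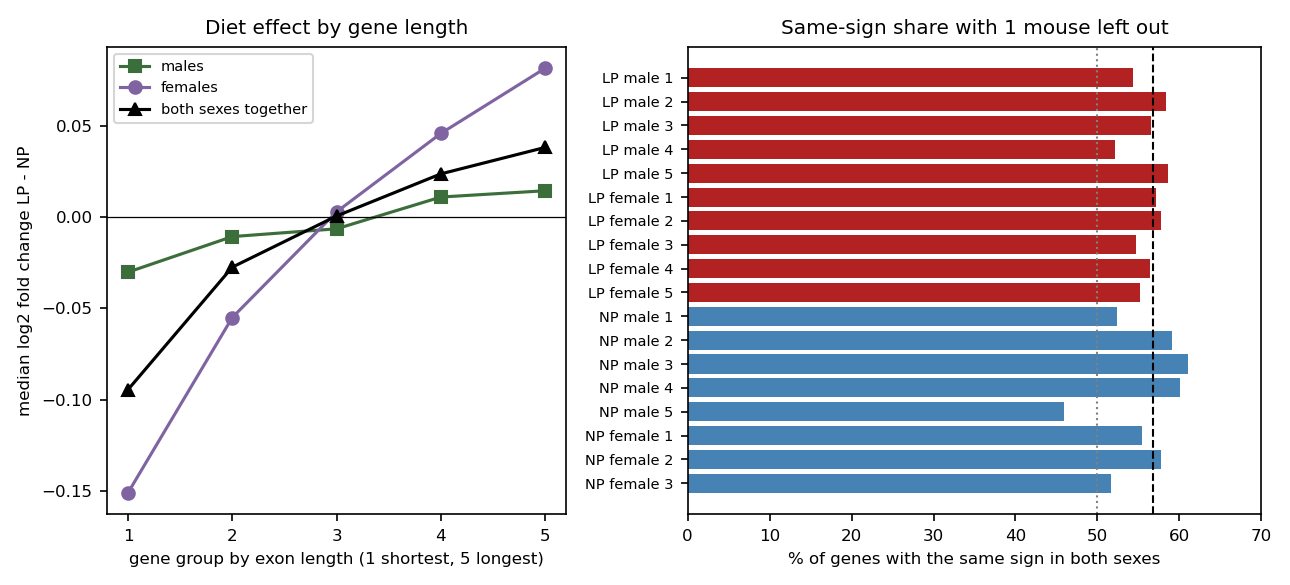
Left, the median log2 fold change (LP minus NP) of genes in 5 equal groups by exon length (1 is the shortest), in males, females and both sexes together. Right, the percent of genes with the same sign in both sexes with each mouse left out (red LP, blue NP), where the dashed line marks 56.8% for all mice, the dotted line marks 50%, and the shares run from 45.9% without NP male 5 to 61.0% without NP male 3.

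**Figure D5:**
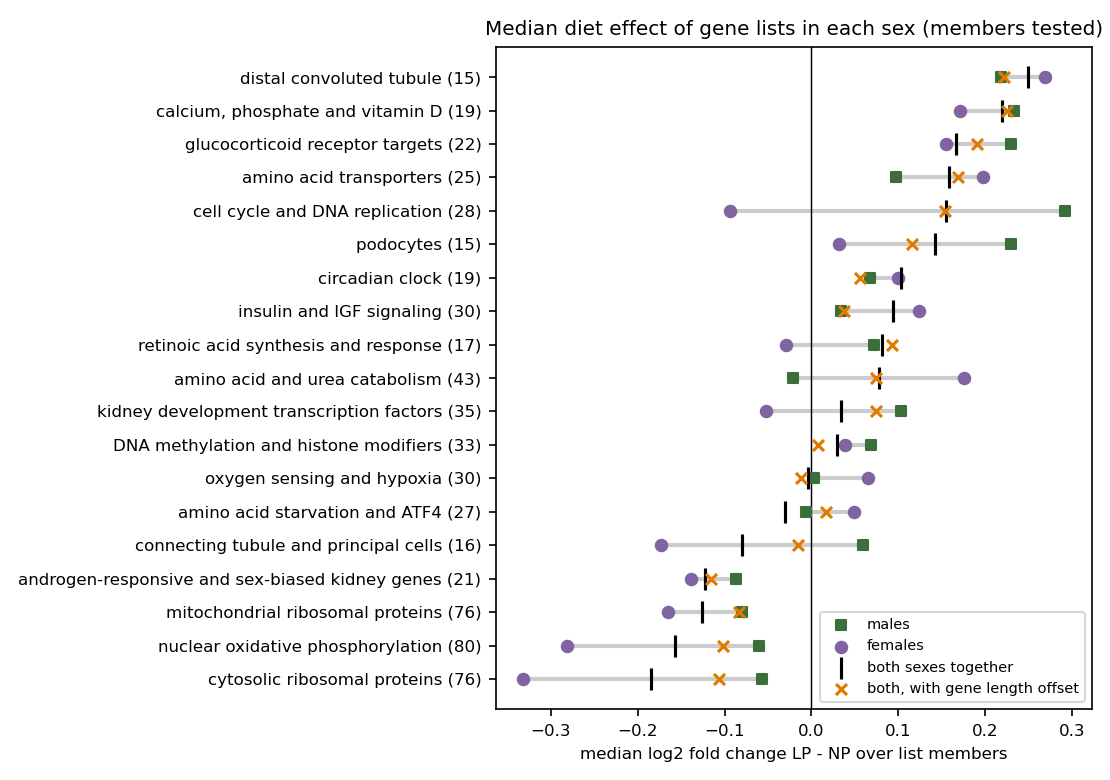
Median log2 fold change (LP minus NP) over the tested members of 19 gene lists, in males (squares), in females (circles), in both sexes together (bars) and with the gene length offset (crosses), with the number of members tested in brackets. The distal convoluted tubule and calcium lists lie above 0 in both sexes, and the ribosomal and oxidative phosphorylation lists lie below 0 in both.

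Interferon-stimulated genes, the list by which the 3 libraries stood apart, were lower in both sexes in 33 of 38, with a median of −0.33 (−0.20 in males, −0.47 in females) and no member with an unadjusted p under 0.05 in edgeR. Without the 3 libraries 33 were lower in both sexes and the median was −0.25. Without NP female 2 alone 10 were lower and the median was −0.04. Fibroblast and matrix genes had no shared direction, since 18 of 23 had opposite signs, with medians of 0.48 in males and −0.24 in females.

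Of 18 genes that the study named, 16 were expressed well enough to be tested. They were chosen by the study on these same mice and are not independent evidence of a direction. The sign was the same in both sexes in 11 and opposite in 5, which were *Gfra1*, *Etv5*, *Gata3*, *Trpv6* and *Col5a1*. Beside *Aldh1a1*, *Trpv5*, *Pax8*, *Egln3*, *Iqcg*, *Slc7a13* and *Pzp*, described above, *Dvl1*, a transducer of Wnt signals, had an unadjusted p under 0.05 with the same sign in both sexes, at −0.43 ± 0.15 with −0.61 in males and −0.19 in females. Without the 3 libraries that stood apart it was −0.49 at an edgeR adjusted p of 0.0465, a change of less than 1.5-fold. *Dvl1* counted 2935 and 3313 in LP females 1 and 2 and 3817 in NP female 3, against 1698–2170 in the other females. *Gfra1*, the co-receptor through which GDNF activates RET, was no shared change, since it was −3.60 in males and 0.62 in females and the edgeR test of that difference had an adjusted p of 0.0158.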

How the data were processed

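Total RNA from 18 kidneys (10 LP and 8 NP mice of both sexes) was sequenced as poly(A)-selected, non-directional libraries. The authors aligned reads with STAR to GRCm39 with GENCODE annotation and deposited STAR's raw read counts per gene. Column 2 of each deposited file, the count without regard to strand, was used here, and reads not assigned to 1 gene (28.6–36.1%) were left out. The 14050486 to 23562411 assigned reads per library set the counting precision, and the common biological coefficient of variation between mice was 0.247. Genes with at least 10 reads in every library were kept. Diet was tested with edgeR 4.0.16 (TMM scaling, quasi-likelihood F test, sex as covariate, Benjamini-Hochberg adjustment over all genes tested) in R 4.3.3, and again within each sex. The study's own analysis was made within each sex with DESeq2. A DEG had an adjusted p under 0.05 and a change of 1.5-fold or more. SEs were taken from the log2 fold change and its F statistic. Single genes were also tested by exact 2-sided permutation of log2(normalised count + 1) within sex. List levels are means of log2(CPM + 1) over members. The 59 gene lists are described by counts and medians, with no test of a list.

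Named genes were, in each direction, the 15 with the smallest shared p and the 10 with the smallest larger p of the 2 sexes, the 18 genes that the study named, and up to 4 members of each list with a shared p under 0.05. *Mir22hg*, *Gldc* and the list members given with no unadjusted p under 0.05 were chosen after values were seen. A few genes that the rule names are not reported here. The members and lists were chosen with earlier results of these data known. Exon lengths and start sites came from GENCODE vM39, whereas the counts name vM36 genes. Opposite-strand overlaps that the text does not give beside the gene are with protein-coding genes for *Trpv6* (*Ephb6*), *Dvl1* (*Tas1r3*), *Cdc25b* (*Spef1*) and *Iqcg* (*Lrch3*), and with non-coding or predicted genes for *Slc8a1*, *Psat1*, *Gata3*, *Mir22hg*, *Bhlhe40*, *Aqp2*, *Gfra1*, *Nrbp2*, *Car9*, *Rpl30*, *Trpm6*, *Pzp*, *Slc43a2*, *Etv5*, *Col5a1*, *St3gal2*, *Sox4* and *Pax8*.

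The alternatives were edgeR's own filter on low counts, a minimum mean count of 10 and no filter, scaling by DESeq2's size factors, the DESeq2 1.42.0 Wald test, limma-voom 3.58.1 with sample quality weights, a replicate block, a 4-group model, 1 surrogate variable (sva 3.50.0), leaving out the 3 libraries that stood apart and leaving out each mouse. An offset for gene length (lowess span of 0.3) was added after the data were seen. Figures were drawn with matplotlib 3.10.9.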

Additional observations from a re-analysis of the deposited data

Results flagged for a closer look

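For the genes named, each group of 5 mice was searched for a mouse whose distance to the nearest other mouse was a large part of the group's range on the log2 scale (Dixon's criterion), and 9 of 231 groups held one, where chance gives about 1 in 20. *Mcm4* was 57.2 in NP male 4 against 80.96–86.0, and 222 in LP female 2 against 144–158. *Iqcg* was 463 in LP male 3 against 112–143. *Saa3*, an acute-phase gene, was 423 in LP male 2 against 68.5–115. *Pzp* was 7564 in NP male 4 against 6466–6757. *Osr2*, a factor of kidney development, was 198 in NP male 5 against 139–148. *Tspyl1* was 1039 in LP female 2 against 1112–1137. LP male 1 had *Kcnh1* at 63.4 against 83.7–92.9 and *Nr6a1* at 73.3 against 55.4–59.6.

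The diet effect differed between the sexes for 2 of the genes named. *Pzp* was −0.20 in males and −2.46 in females (edgeR interaction adjusted p of 0.0338), and *Gfra1* was −3.60 in males and 0.62 in females (edgeR interaction adjusted p of 0.0158). Sex coincides with the interval since the last injection, and the 2 cannot be told apart.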

How the results depend on the processing

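The count of DEGs shared by the sexes, 0 in the edgeR test, was 4 with DESeq2's Wald test, 2 with limma-voom (*4122401K19Rik* and *Aldh1a1*), 1 in the 4-group model (*Pzp*) and 1 without the 3 libraries that stood apart (*Aldh1a1*). In that last setting 3 genes passed the adjusted p alone, *Aldh1a1* and *Dvl1* among them. With each mouse left out in turn the count of DEGs was 0 to 1, the 1 being *Aldh1a1* without LP female 3 or without NP female 3. The count at an unadjusted p under 0.05, 660, was 3137 with no filter on low counts, a setting that adds genes with few reads, 1014 with 1 surrogate variable, 330 with the replicate block, and 471 to 1303 with 1 mouse left out, the 1303 without NP female 2. The cause of these shifts was not tested. In males alone there were 5 DEGs, 15 with DESeq2 and 2 with the replicate block, and in females 0, with 9 in DESeq2. The 15 genes with an unadjusted p under 0.05 in each sex and the same direction became 35 without the 3 libraries and 10 to 51 with 1 mouse left out, 26 without LP male 3, 23 without NP male 2 and 51 without NP female 2. Same-sign genes numbered 5825 to 7742 with 1 mouse left out.

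Replicate numbers did not pair the mice. Deviations of same-numbered LP and NP mice from their group means had correlations of −0.297 to 0.327 over 5 male pairs and −0.607 to −0.388 over 3 female pairs, so that the block shares only a number.

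Of 77 named genes, 75 kept their direction under every alternative run. Many of these genes were named for a small p in the same data, and most alternatives left out only 1 mouse. A kept direction therefore adds no independent support. *Etv5* was −0.013 with limma-voom, and *Trpv6* was −0.0017 with the replicate block and −0.054 to 0.49 with 1 mouse left out, both being genes with opposite signs in the sexes. All 418 list medians recomputed with DESeq2's size factors, with 1 surrogate variable, with the gene length offset, without the 3 libraries and without each mouse moved by less than the SD between mice. This bound was wide for some lists. For glucocorticoid targets the SD ran from 0.30 in NP males to 0.97 in LP females, against a median difference of 0.17. Loss of that whole difference would have stayed within the bound, so that the count does not show stable medians. The litter of each mouse is not given in the sources used here, and 3 NP females set the precision of every female value.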
